A study of Homo sapiens with 8 samples.

Results

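Ribosomal RNA, the RNA of the signal recognition particle and a group of other short structural RNAs make up most of the RNA in a human cell but carry no regular poly(A) tail. They were taken here from the gene tables of 2 thyroid cancer lines by their symbols, with a rule for 18S and 28S ribosomal RNA, 7SL, 7SK, RNase P, RNase MRP, telomerase, vault, Y and U RNAs. The rule found 10 of the 12715 genes listed in either line. They were RN28S1, RN18S1, RN7SL1, RN7SL2, RPPH1, RNY5, VTRNA1-2, RNU2-2, RNU7-1 and TERC. All 10 stood in the 11513 genes of the CAL-62 tables and 7 in the 11900 genes of the BCPAP tables, where RN18S1, RPPH1 and TERC were not listed.

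The study treated BCPAP and CAL-62 cells, both labelled as anaplastic thyroid carcinoma, with 100 nM of THZ1 during 6 h or with the solvent DMSO alone, and sequenced oligo(dT)-selected RNA from 2 libraries in each of the 4 groups. THZ1 is a covalent inhibitor of CDK7, the kinase within TFIIH, which phosphorylates the tail of RNA polymerase II, and at higher exposure of CDK12 and CDK13. BCPAP grew in RPMI with 10% serum and CAL-62 in DMEM with 20% serum, so differences of line and of medium cannot be told apart. Whether replicates were separate cultures is not in the labels, and the spread between them may be technical. Of the thyroid lineage genes looked for, the transcription factor genes PAX8, NKX2-1 and FOXE1 were listed in BCPAP and PAX8 alone in CAL-62, while TG and TSHR were listed in neither line. Of 6 epithelial genes 3 were listed in BCPAP and 5 in CAL-62, and of 3 endothelial genes 0 in either. Of the blood and fibroblast markers looked for, CD68 and COL1A1 alone were listed, in both lines.

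RNA polymerase I makes the precursor of 18S and 28S ribosomal RNA in the nucleolus. RNA polymerase III makes 7SL, RNase P, Y and vault RNAs, whereas U2, U7 and telomerase RNA are short products of RNA polymerase II that end without a long poly(A) tail. Poly(A) selection removes most molecules of all of them, and some molecules also carry a short oligo(A) tail added during processing or decay. The values below are therefore levels in oligo(dT)-selected RNA and not amounts in the cell. In bulk samples, fewer cells and less RNA per cell cannot be told apart.

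The listed RNAs, 10 in CAL-62 and 7 in BCPAP, held a very small share of every library. The share of reads was higher after THZ1 in each line, but in BCPAP this rested on RN28S1. Under DMSO in CAL-62 they took 1412 and 732 of the reads in listed genes, which was 0.00752% (Wilson 95% interval 0.00714% to 0.00792%) and 0.00379% (0.00352% to 0.00407%). In the CAL-62 THZ1 libraries they took 3822 and 7642 reads, which was 0.0229% (0.0222% to 0.0236%) and 0.0382% (0.0374% to 0.0391%). Both THZ1 libraries lay above both DMSO libraries. In BCPAP the DMSO libraries held 0.00463% (0.00433% to 0.00495%) and 0.00192% (0.00174% to 0.00213%), and the THZ1 libraries 0.00561% (0.00528% to 0.00596%) and 0.0221% (0.0214% to 0.0228%). The groups did not overlap there either, but the first THZ1 library stood close to the first DMSO library. Without RN28S1 the BCPAP libraries held 0.00416% and 0.000343% under DMSO and 0.00228% and 0.000822% after THZ1, with a lower mean after THZ1 (0.00155% against 0.00225%), whereas in CAL-62 the mean was still higher (0.00983% against 0.00366%). As a share of summed values the BCPAP means were 0.0202% in both groups. The mean share in CAL-62 was 0.00565% ± 0.00264 under DMSO and 0.0306% ± 0.0108 after THZ1 (SD, n = 2), and 0.00328% ± 0.00191 and 0.0139% ± 0.0117 in BCPAP (SD, n = 2). No test was made on 2 libraries a group, where an exact two-sided permutation test cannot go below p = 0.33. The intervals cover counting error only, since reads without molecular identifiers are not independent molecules.

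**Figure D1:**
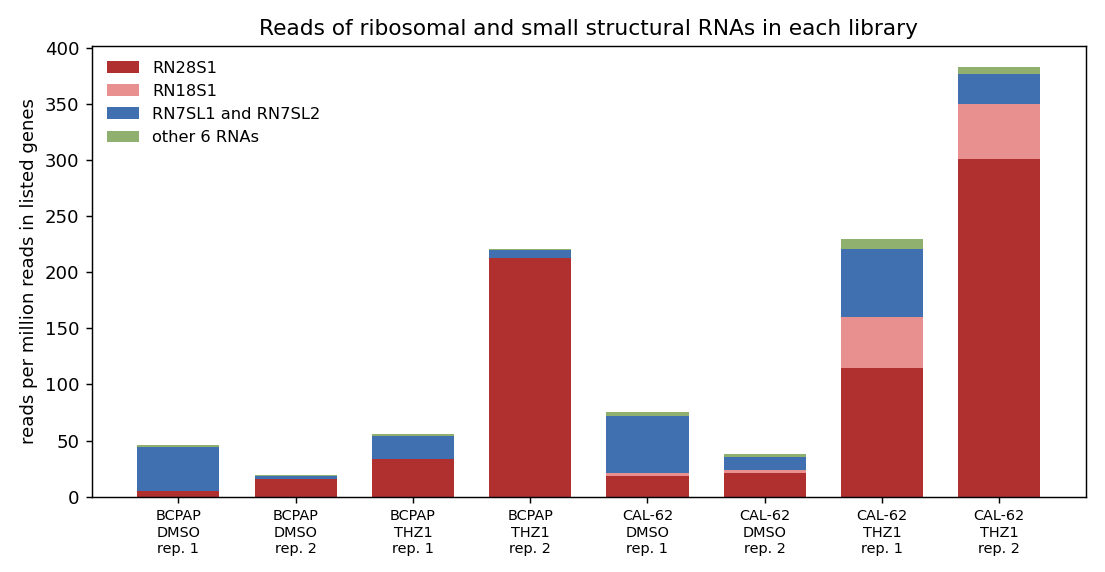
Reads of the 10 RNAs scaled to the same number of reads in listed genes (vertical axis), in each of the 8 libraries (horizontal axis), stacked by RNA. RN28S1 is the largest piece of the bar in every library, DMSO or THZ1, except the DMSO libraries numbered 1. In those the 2 copies of 7SL make up most of the bar.

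RN28S1 had the most reads of these RNAs over the libraries of each line, and in CAL-62 the 28S and 18S ribosomal RNAs had the largest changes of the 9 tested. RN28S1, the RNA of the large ribosomal subunit that holds its peptidyl transferase centre, had values of 3.14 and 3.48 RPKM (reads scaled by gene length and by library total) in CAL-62 under DMSO and 27.2 and 63.4 after THZ1, from 344, 416, 1905 and 6008 reads. In BCPAP it had 0.877 and 2.87 under DMSO and 6.69 and 45.8 after THZ1, from 88, 300, 614 and 4115 reads. In each line both THZ1 libraries lay above both DMSO libraries, and the ratio of the means was 13.7 in CAL-62 and 14.0 in BCPAP. The 2 THZ1 libraries of BCPAP were farther apart than its first THZ1 library was from the DMSO libraries. On the log2(value + 1) scale the change was 3.31 (SE 0.80, limma adjusted p = 0.0561) in CAL-62 and 2.82 (SE 0.80, limma adjusted p = 0.932) in BCPAP, so neither passed the threshold of 0.05. The change was 0.49 larger in CAL-62 (SE 1.13, limma adjusted p = 0.935 for the difference). With the sum of reads as scaling the CAL-62 change was 2.93 and passed (limma adjusted p = 0.0493). It passed in 5 of 15 alternatives. It did not pass with a pseudocount of 0.1 (limma adjusted p = 0.0614), with limma-voom (adjusted p = 0.0546) or in the CAL-62 libraries alone (limma adjusted p = 0.0835).

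RN18S1, the RNA of the small ribosomal subunit that decodes the messenger, was listed in CAL-62 alone. Its values were 1.46 and 1.04 under DMSO and 29.4 and 28.0 after THZ1. The 4 libraries fell into 2 tight pairs, with a ratio of means of 22.9. The change was 3.73 on the log2(value + 1) scale (SE 0.25, limma adjusted p = 0.0120), and RN18S1 was 1 of the 66 genes called higher among 11362 tested, or 0.581%. It kept the call in 12 of 15 alternatives and lost it in the CAL-62 libraries alone (adjusted p = 0.0665, limma). The call was also lost without CAL-62 DMSO replicate 1 (change 3.86) or 2 (change 3.59). The alternatives that leave out a BCPAP library could not move its estimate, since it was fitted on CAL-62 libraries only. Both symbols stand for a repeated gene: RefSeq gives RN18S1 as a synonym of 2 loci and RN28S1 of 2, so the reads are a sum over copies or a part of it. The recovered lengths of 1869 and 5070 bases equal a RefSeq length of each.

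The ratio of the ribosomal RNAs per unit of length was not constant. A ribosome holds each of these RNAs once. RN28S1 over RN18S1 in CAL-62 was 2.15 and 3.33 under DMSO and 0.926 and 2.26 after THZ1. The replicate 1 library was lower than the replicate 2 library in both groups, and the DMSO and THZ1 ranges overlapped. The mitochondrial ribosomal RNAs, which RNA polymerase II does not make and which carry short tails, were listed outside the rule. RNR1, the 12S RNA, had, in CAL-62, 799.9 and 658 under DMSO and 1786 and 1339.7 after THZ1 (change 1.09, SE 0.25, limma adjusted p = 0.0505), and 386 and 395 against 492 and 514 in BCPAP (change 0.37, limma adjusted p = 0.932). RNR2, the 16S RNA, had a change of 1.00 in CAL-62 (SE 0.31, limma adjusted p = 0.0843). Neither passed the test in either line.

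**Figure D2:**
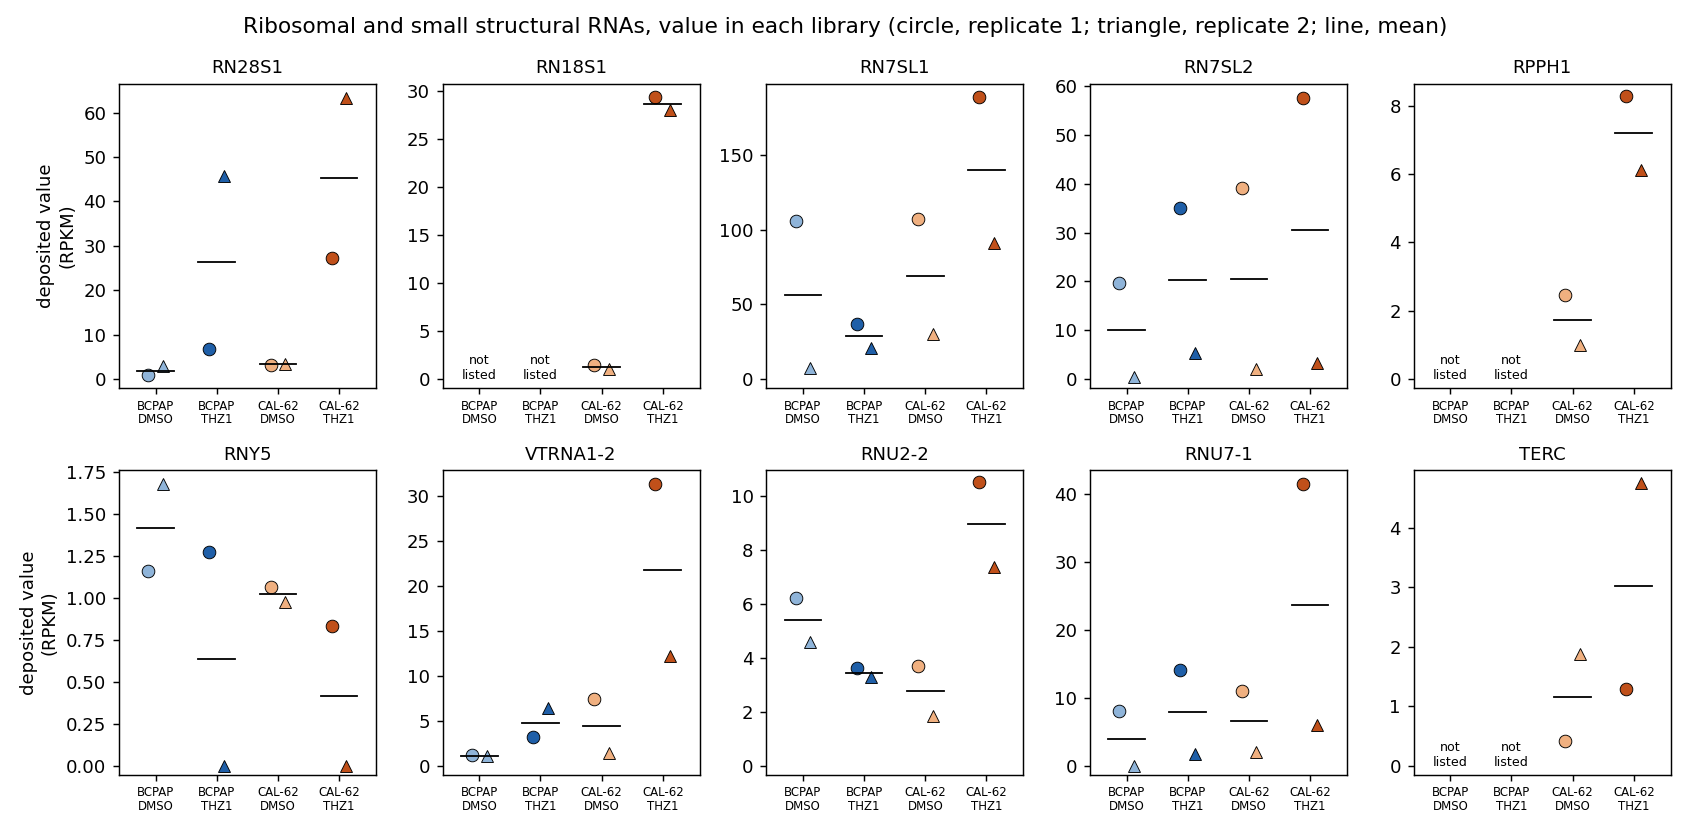
Deposited value (vertical axis, RPKM, linear, a separate scale for each RNA) in the 4 groups (horizontal axis); circles are replicate 1, triangles replicate 2 and lines group means. RN18S1 forms 2 tight pairs in CAL-62, near 1 and near 28, while RN7SL2 and RNU7-1 are high in every circle and low in every triangle.

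The signal recognition particle pauses and docks ribosomes that make secreted and membrane proteins, and 7SL is its RNA scaffold. RN7SL1 and RN7SL2 are nearly identical gene copies, and the files divide 7SL reads between them. A read that covers no position where they differ fits both copies, so this division is uncertain. RN7SL1 also lies in an intron of RPS29, on the other strand. On its own strand it overlaps an exon of AL139099.4, a gene listed in neither line, whose part in the reads was not tested.

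RN7SL1 had the highest value of the 10 RNAs in 7 of the 8 libraries, all but BCPAP THZ1 replicate 2, and its change with THZ1 passed the test in neither line. Its values in CAL-62 were 107 and 30.2 under DMSO and 189 and 91.4 after THZ1. The BCPAP libraries had 106 and 7.31 under DMSO and 37.0 and 21.0 after THZ1. The groups overlapped in both lines, and in CAL-62 the libraries of one group differed by more than the group means did. The change was 1.19 in CAL-62 (SE 1.10, limma adjusted p = 0.495) and -0.04 in BCPAP (SE 1.10, limma adjusted p = 0.997). RN7SL2 had, in CAL-62, 39.1 and 2.13 under DMSO and 57.7 and 3.22 after THZ1, and 19.6 and 0.325 against 35.1 and 5.28 in BCPAP. Its changes were 0.49 (SE 1.80, limma adjusted p = 0.875) and 1.53 (SE 1.80, limma adjusted p = 0.938). The CAL-62 change of RN7SL2 turned to -0.32 with ribosomal protein genes as the reference.

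In CAL-62 replicate 1 and replicate 2 libraries differed in RN7SL2 far more than DMSO and THZ1 libraries did. The higher CAL-62 library held 18.3 times the lower under DMSO and 17.9 times after THZ1. The share of 7SL reads assigned to RN7SL2 also went with the library: in CAL-62 it was 26.7% and 6.58% under DMSO and 23.4% and 3.40% after THZ1, and 15.7% and 4.26% against 48.7% and 20.1% in BCPAP. In BCPAP both THZ1 shares lay above both DMSO shares, while in CAL-62 the groups overlapped. The summed value of both copies was 146 and 32.4 against 246 and 94.6 in CAL-62 and 125 and 7.63 against 72.1 and 26.2 in BCPAP, and these groups overlapped as well.

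RPPH1, the catalytic RNA of RNase P that trims the 5′ end of transfer RNA precursors, was listed in CAL-62 alone. Its values were 2.45 and 0.996 under DMSO, from 18 and 8 reads, and 8.28 and 6.12 after THZ1, from 39 and 39 reads. The groups did not overlap and the ratio of means was 4.18. The change of 1.63 (SE 0.35) missed the threshold (limma adjusted p = 0.0582). RPPH1 overlaps an exon of AL355075.4 on the same strand, a gene listed in neither line, whose part in the reads was not tested.

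VTRNA1-2 is a vault RNA, a short polymerase III product that also exists free of the vault particle. Its annotated sequence is shown as an example of how short these features are, with the longest run of A in capitals.
VTRNA1-2: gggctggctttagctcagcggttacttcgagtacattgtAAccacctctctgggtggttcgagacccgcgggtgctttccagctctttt
The sequence, from GENCODE release 29 on GRCh38 at chr5:140718925-140719013 on the plus strand, holds no A run longer than 2 bases. It is 89 bases long, while the deposited values imply a counted length of 88 bases. In CAL-62 VTRNA1-2 had 7.37 and 1.45 under DMSO and 31.3 and 12.2 after THZ1, from 14, 3, 38 and 20 reads. In BCPAP it had 1.15 and 1.10 under DMSO and 3.14 and 6.41 after THZ1, from 2, 2, 5 and 10 reads. All 4 THZ1 values lay above the DMSO values of their line. The change was 2.19 in CAL-62 (SE 0.63, limma adjusted p = 0.0757) and 1.38 in BCPAP (SE 0.63, limma adjusted p = 0.932), and the second rests on DMSO counts below 3 reads a library. RNY5, a Y RNA that binds the Ro protein, had 0 to 3 reads in every library, and its values reached 1.67 at most. The mean fell under the filter of 1 and it was not tested, and 3 reads, the limit that a count of 0 allows, correspond to 1.46 to 2.50 in these libraries.

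RNU2-2 is a gene for U2, the small nuclear RNA that pairs with the branch point of an intron during splicing, and RNU7-1 is the gene for U7, which guides the 3′ cleavage of replication-dependent histone messengers. Both sequences are shown because the files count them over very short features. In U7 the capitals mark the Sm binding site, searched as AATTTGTC on the strand of the RNA and found at bases 21 to 28. In U2 the capitals mark the first of the longest runs of A.
RNU7-1: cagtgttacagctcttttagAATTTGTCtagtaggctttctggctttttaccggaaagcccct
RNU2-2: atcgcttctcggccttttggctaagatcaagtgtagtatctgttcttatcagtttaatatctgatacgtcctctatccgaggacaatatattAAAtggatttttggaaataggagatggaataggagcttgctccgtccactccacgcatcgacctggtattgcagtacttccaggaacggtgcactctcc
The sequences are from GENCODE release 29 on GRCh38, RNU7-1 at chr12:6943816-6943878 on the plus strand and RNU2-2 (there named RNU2-2P) at chr11:62841619-62841809 on the minus strand. The length that the deposited values imply for RNU2-2 is 138 bases, not the 191 of this annotation, so the counted feature was not the same stretch. RNU2-2 lies in an exon of WDR74 and RNU7-1 in an exon of C12orf57, both on the same strand, and reads of a host messenger that cover the small gene cannot be told apart from it here.

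RNU2-2 rose in CAL-62. Its values were 3.69 and 1.85 under DMSO, from 11 and 6 reads, and 10.5 and 7.36 after THZ1, from 20 and 19 reads. The change was 1.42 (SE 0.31, limma adjusted p = 0.0475), and with RN18S1 it was 1 of 2 RNAs called among the 9 tested. The call held in 2 of 15 alternatives. It was lost, for example, without CAL-62 DMSO replicate 2 (change 1.06, adjusted p = 0.249, limma) and with ribosomal protein genes as the reference (change 0.65, adjusted p = 0.271, limma). In BCPAP the values were 6.22 and 4.58 under DMSO and 3.61 and 3.27 after THZ1, from 17, 13, 9 and 8 reads, with a change of -0.52 (SE 0.31, limma adjusted p = 0.932). So the THZ1 libraries lay above the DMSO libraries in one line and below them in the other. The difference between the responses was 1.94 (SE 0.45) and did not pass the test over all genes (limma adjusted p = 0.834). WDR74, its host gene, had, in CAL-62, 47.3 and 54.4 under DMSO and 81.0 and 52.6 after THZ1 (change 0.36, limma adjusted p = 0.358), and its part in the reads of RNU2-2 was not tested.

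RNU7-1 had, in CAL-62, 11.0 and 2.02 under DMSO and 41.4 and 5.94 after THZ1, from 15, 3, 36 and 7 reads. In BCPAP it had 8.02 and 0 under DMSO and 14.0 and 1.79 after THZ1, from 10, 0, 16 and 2 reads. The groups overlapped in both lines, since each second library was below each first library. The change was 1.51 in CAL-62 (SE 1.32, limma adjusted p = 0.470) and 1.11 in BCPAP (SE 1.32, limma adjusted p = 0.938). C12orf57, a short protein-coding gene, had, in CAL-62, 33.3 and 38.4 under DMSO and 76.3 and 72.2 after THZ1 (change 1.03, SE 0.24, limma adjusted p = 0.0532), and its part in the reads of RNU7-1 was not tested.

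TERC, the RNA template of telomerase, was listed in CAL-62 alone. It had 0.411 and 1.88 under DMSO and 1.28 and 4.74 after THZ1, from 4, 20, 8 and 40 reads. The groups overlapped, and the change was 0.85 (SE 0.54, limma adjusted p = 0.341). TERC and RN28S1 were higher in replicate 2 in each group where they were listed, unlike 7SL and U7.

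The 9 RNAs tested in CAL-62 each had a positive change, with a median of 1.51 where the median of all genes was 0.03. The filter on the mean used all libraries of the lines where a gene was listed. It can remove only genes that fell in at least 1 line, since the tables hold genes with a DMSO mean of at least 1.00. It left out RNY5. Without the filter RNY5 had a change of -0.58 in CAL-62 and -0.67 in BCPAP, 9 of 10 RNAs were positive in CAL-62 (median 1.47) and 4 of 7 in BCPAP (median 1.11). Both THZ1 libraries lay above both DMSO libraries for 5 of the 9, which was so for 30.1% of all genes tested. In BCPAP 4 of 6 had a positive change, with a median of 1.25 against 0.07 for all genes. This median was -0.46 without BCPAP DMSO replicate 2, with 2 of 6 positive, 0.08 without BCPAP THZ1 replicate 1 and 2.04 without BCPAP DMSO replicate 1. There the THZ1 libraries lay above for 2 of 6 (21.9% of all genes) and below for 1 of 6 (16.4% of all genes). In BCPAP 0 of the 6 were called, as were 0% of all 11743 genes tested by limma. At an unadjusted p under 0.05, 471 genes and 1 of the 6 RNAs passed. The difference of the responses had 0 calls among the 6 and 0% among all 10653 genes, with 562 genes and 1 RNA at an unadjusted p under 0.05. CAL-62 and BCPAP under DMSO differed in 0 of the 6 RNAs and in 14.1% of all genes, and 1 RNA, RNU2-2, had an unadjusted p under 0.05 there (change -0.80, lower in CAL-62, limma adjusted p = 0.129).

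The scaling between libraries moved the size of these changes. Each scaling multiplies all values of a library by 1 factor. A median relative to all genes can therefore hardly move, and its steadiness is not a check. The sum of reads shifted the median of all genes in CAL-62 to -0.33, and ribosomal protein genes as the reference to -0.76. The median of the 9 RNAs was 1.14 and 0.69 on those scales. Relative to all genes it was 1.48, 1.47 and 1.45 on the deposited scale and these 2. All 9 stayed positive with the sum of reads, and 8 of 9 with the ribosomal protein reference.

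**Figure D3:**
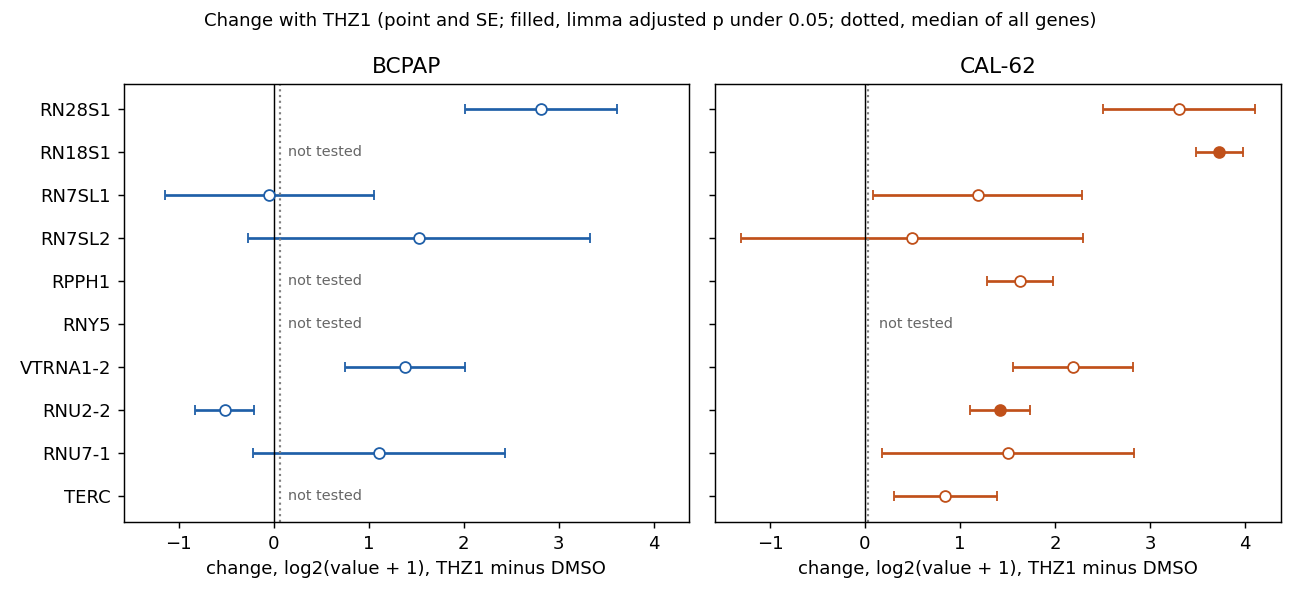
Change on the log2(value + 1) scale, THZ1 minus DMSO (horizontal axis), for each RNA (vertical axis) in BCPAP and CAL-62; points are limma estimates, bars 1 SE, filled points passed an adjusted p under 0.05 and the dotted line is the median of all genes. RN18S1 and RNU2-2 in CAL-62 are the filled points, and the bars of both 7SL copies and of RNU7-1 are the widest.

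Libraries with the same replicate number resembled each other in several of these RNAs. Among the 7 RNAs listed in both lines, RN7SL1, RN7SL2, RNU7-1 and RNU2-2 were higher in replicate 1 than in replicate 2 in all 4 groups, as were 24.9% of the 10698 genes listed in both lines. RN28S1 was higher in replicate 2 in all 4 groups, as were 22.0% of those genes. On the log2(value + 1) scale the difference of replicate 1 minus replicate 2 lay between 2.52 and 3.96 for RN7SL2, between 1.99 and 3.17 for RNU7-1 and between -2.60 and -0.11 for RN28S1. The median over all genes lay between 0.03 and 0.04. Small nucleolar RNAs leaned the same way as 7SL: the median for box C/D small nucleolar RNAs was between 0.11 and 0.93, and for the box H/ACA class between 0.26 and 0.90. Histone genes leaned the other way in 3 of the 4 groups, with medians of -0.48 and -0.89 in BCPAP and -0.29 in CAL-62 under DMSO, and 0.42 in CAL-62 after THZ1.

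**Figure D4:**
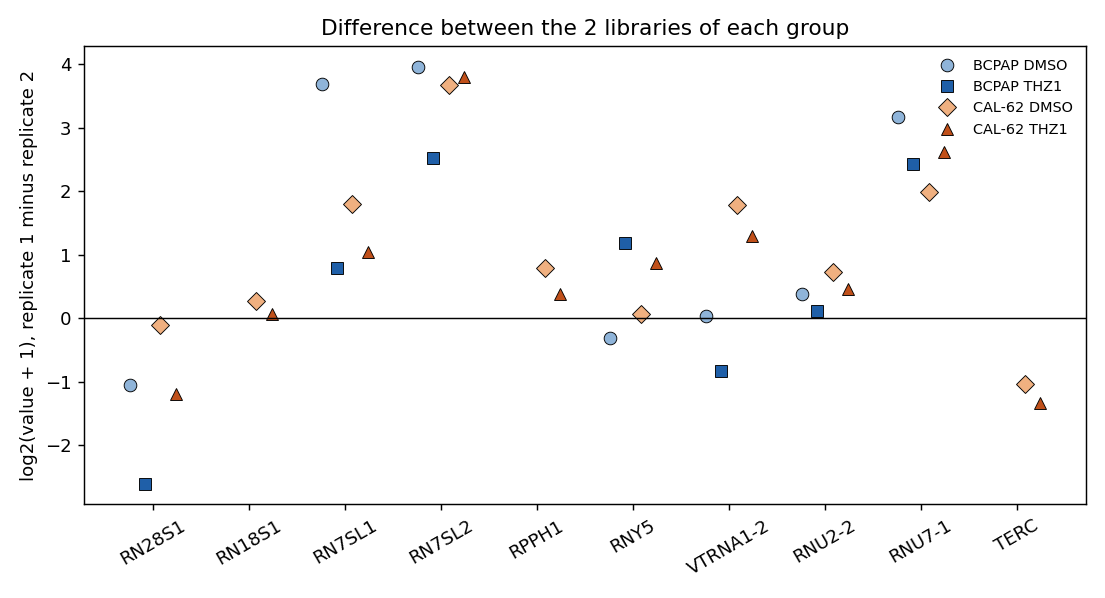
Difference on the log2(value + 1) scale between replicate 1 and replicate 2 (vertical axis) for each RNA (horizontal axis), with 1 point per group. The points of RN7SL1, RN7SL2, RNU2-2 and RNU7-1 are all above 0 and those of RN28S1 and TERC all below it.

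Some other genes followed a pattern like that of the 7SL copies, judged by Pearson's r of the log2 values minus their line mean over the 8 libraries. For RN7SL1 the closest were LOC100133291 (r = 0.957), MRRF (r = 0.956), a mitochondrial ribosome recycling factor, and TTC12 (r = 0.95). For RN7SL2 the closest were KIAA0020 (r = 0.993), a Pumilio-family RNA-binding protein, SLMO2 (r = 0.984) and RPF1 (r = 0.983), a nucleolar factor of ribosome assembly. KIAA0020 had, in CAL-62, 57.1 and 36.1 under DMSO and 64.3 and 37.6 after THZ1, so it too was split by replicate number. The 8 points share libraries and line, and the genes were picked for the highest r among all genes, so the values are a description.

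The genes of proteins that make or bind these RNAs had smaller median changes, and the calls among them were lower. In CAL-62, 459 of 11362 genes, or 4.04%, were called lower. Of the genes for RNA polymerase III and its factors, 3 of 22 fell and 0 rose (median -0.15). They were BRF2, a factor for promoters of the U6, 7SK and RNase P type, with values of 5.05 and 6.81 against 1.09 and 1.47 (change -1.60, limma adjusted p = 0.0248), and the subunits POLR3D (change -1.54, limma adjusted p = 0.0347) and POLR3E (change -1.24, limma adjusted p = 0.0476). Of 14 RNA polymerase I genes none was called (median -0.33), and CD3EAP, a polymerase I subunit, had the smallest p (change -0.74, limma adjusted p = 0.141). Of 8 snRNA promoter factors none was called either, and ZNF143 was at -0.86 (limma adjusted p = 0.128).

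Of 6 genes for the 7SK particle and the elongation kinase P-TEFb that it holds inactive, 1 fell. It was MEPCE, which caps 7SK, in CAL-62 at 48.8 and 46.1 under DMSO and 10.9 and 9.89 after THZ1 (change -2.09, SE 0.22, limma adjusted p = 0.0146). In BCPAP it had 22.0 and 18.5 against 20.8 and 15.1 (change -0.18, limma adjusted p = 0.938). RN7SK itself had no row in the tables used here. Of 9 protein genes of RNase P and RNase MRP, 2 fell, RPP14 (6.86 and 9.57 against 1.43 and 1.73, change -1.82, limma adjusted p = 0.0261) and RPP38 (9.91 and 11.9 against 3.41 and 1.13, change -1.95, limma adjusted p = 0.0319). RPPH1, their RNA partner, had a positive change in the same libraries.

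Of 25 genes for snRNA 3′ end cutting and particle assembly, 5 fell (median -0.31). INTS5, a subunit of the Integrator complex that cuts U RNA precursors, had 21.3 and 22.7 under DMSO and 5.29 and 5.27 after THZ1 (change -1.87, limma adjusted p = 0.0146). GEMIN4 (change -1.34, limma adjusted p = 0.0274) and DDX20 (change -1.93, limma adjusted p = 0.0372) belong to the SMN complex, which loads Sm proteins onto U RNAs. Of 22 genes for oligo(A) tailing and the nuclear exosome, which mark and degrade or trim such RNAs, 3 fell (median 0.05): ZCCHC7 (change -1.39, limma adjusted p = 0.0256) of the TRAMP complex, TOE1 (change -1.46, limma adjusted p = 0.0373), a deadenylase that removes short tails from small nuclear RNAs, and ZCCHC8 (change -1.41, limma adjusted p = 0.0423) of the nuclear exosome targeting complex. The remaining 19 of these 22 did not pass the test. Over all genes 9 and 0 calls were left without CAL-62 DMSO replicate 1 or 2, and 0 in the 4 CAL-62 libraries alone.

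Of the minor spliceosomal and other U RNAs looked for, none beyond RNU7-1 was tested. In CAL-62 none was called among 25 snRNP proteins (median 0.69, 21 positive; SNRPF 0.95, limma adjusted p = 0.0574), 6 proteins of the signal recognition particle (median 0.56, 5 positive; SRP14 0.94, limma adjusted p = 0.0778), 7 of telomerase (median 0.28; NHP2 0.91, limma adjusted p = 0.0743) and 5 Ro, La and vault proteins (median 0.03; SSB, which is La, 0.73, limma adjusted p = 0.0651). Taken against all genes tested, these 4 medians stood at 0.66, 0.53, 0.25 and -0.00035. With the ribosomal protein reference, which moves the median of all genes down, they stood at 0.51, 0.40, 0.11 and -0.04 against all genes. On the scale of that reference itself they were -0.25, -0.36, -0.65 and -0.80, with 5 of 25, 0 of 6, 0 of 7 and 0 of 5 positive. On that scale 2 snRNP genes and 1 signal recognition particle gene were called lower by limma, as were 3088 of all 11362 genes tested. In BCPAP none of the genes in any list was called by limma, nor was any of all 11743 genes tested.

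Among other RNAs that end without a regular poly(A) tail, small nucleolar RNAs had calls in the lower direction alone and histone genes had none. Over all 11362 genes tested in CAL-62, 4.04% were called lower and 0.581% higher. Of 111 box C/D small nucleolar RNAs tested in CAL-62, 18 fell and 0 rose, with a median of -0.83. SNORD27 had 12.9 and 11.2 under DMSO and 1.01 and 0.743 after THZ1 (change -2.80, SE 0.26, limma adjusted p = 0.0120). Of 53 box H/ACA and Cajal body RNAs, 4 fell and 0 rose, with a median of -0.70, and SNORA71C had 5.71 and 8.92 against 1.57 and 0.775 (change -1.93, limma adjusted p = 0.0238). These RNAs are mostly cut from introns of messenger precursors. Of 13 histone genes, 12 had a positive change (median 0.68) and 0 were called, and HIST1H2BG had the smallest p, with 1.98 and 0.954 against 8.46 and 3.97 (change 1.51, limma adjusted p = 0.0788). Relative to all genes the histone, box C/D and box H/ACA medians were 0.65, -0.86 and -0.73. With the ribosomal protein reference they were 0.56, -0.71 and -0.48 relative to all genes. On the scale of that reference itself the histone median was -0.21, with 6 of 13 positive, and the others were -1.47 and -1.24. In BCPAP the medians were -0.35 for box C/D, -0.31 for box H/ACA and 0.30 for histone genes. There limma gave 0 calls in each, as over all 11743 genes tested.

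**Figure D5:**
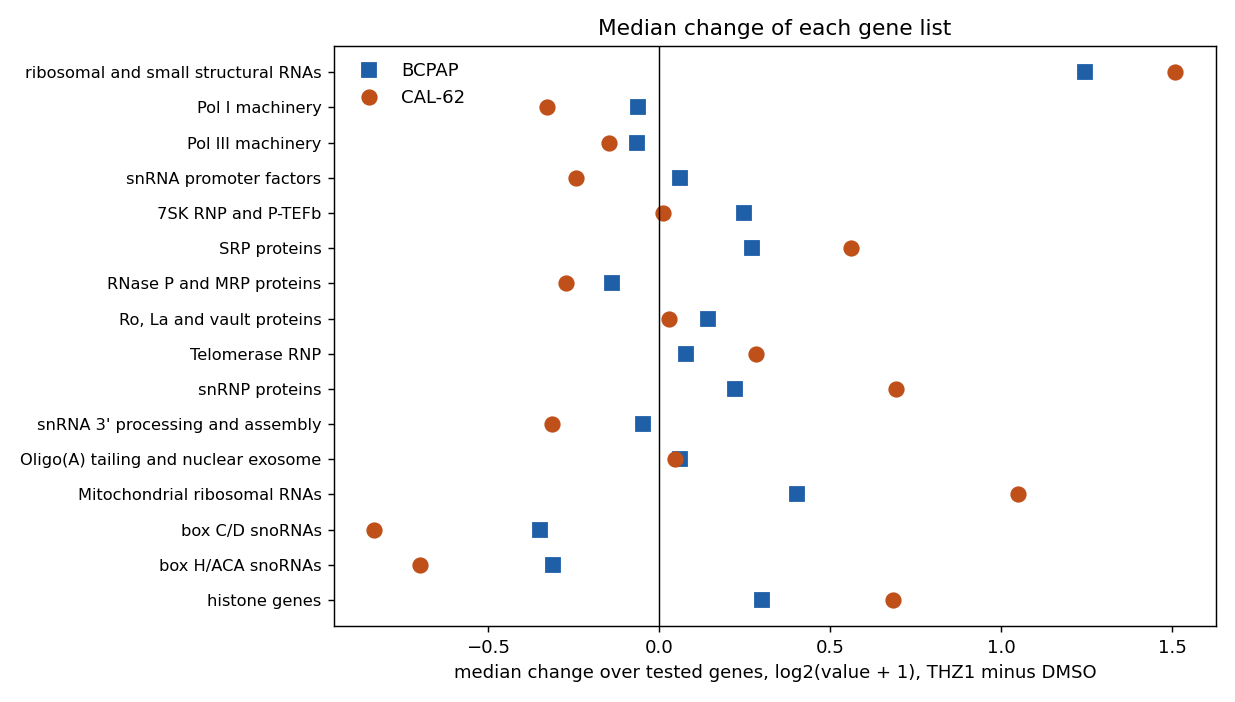
Median change over the tested genes of each list on the log2(value + 1) scale, THZ1 minus DMSO (horizontal axis), with squares for BCPAP and circles for CAL-62. The tested RNAs described here have the highest median of the lists drawn in both lines, at 1.25 and 1.51, and the box C/D RNAs the lowest.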

How the data were processed

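The members and gene lists were chosen with earlier results of these data known. The authors deposited 1 table per library, and per the submitters' processing notes Bowtie2, DESeq2 and hg19 were used, with no roles or versions given. The unit is inferred: the deposited values behave as RPKM (reads scaled by gene length and library total), since with 1 total per library and 1 length per gene all 12715 genes gave whole reads within 0.001. Reads in listed genes were 16682510 to 19989730 per library. The lowest DMSO mean listed was 1.00 in each line, so RNAs with a lower DMSO mean were not analysed here, whatever their THZ1 level. Values were analysed as log2(value + 1) for genes with a mean of at least 1, with limma 3.58.1 (R 4.3.3): 4 group means, a variance trend, two-sided, Benjamini-Hochberg adjustment over all genes, threshold 0.05, checked on simulated data. SDs are from 2 libraries a group, and SEs from the spread pooled over the groups. Named list genes are at most 3 called by smallest p, or the 1 with the smallest p. Sequences come from GENCODE release 29 (GRCh38), lengths from RefSeq. Alternatives were pseudocount 0.1, no filter, other scalings, limma-voom on recovered reads, a replicate block, 1 line alone and each library left out; the ribosomal protein reference (80 genes) was added after seeing the data.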

Additional observations from a re-analysis of the deposited data

Results flagged for a closer look

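RNU2-2, a gene for the U2 spliceosomal RNA, moved in opposite directions in the lines: both CAL-62 THZ1 libraries lay above both DMSO libraries and both BCPAP THZ1 libraries below both DMSO libraries. The response was 1.94 higher in CAL-62 than in BCPAP on the log2(value + 1) scale (SE 0.45), from 6 to 20 reads a library. The interaction test gave an unadjusted p of 0.00255 and a limma adjusted p = 0.834, so the difference did not pass.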

How the results depend on the processing

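In CAL-62, 2 of the RNAs were called. The count was 1 with a pseudocount of 0.1 and with limma-voom on recovered reads, 0 with the 4 CAL-62 libraries alone, 2 without a filter, with the sum of reads and with the ribosomal protein reference, and between 0 and 3 with single libraries left out. Over all 11362 genes in CAL-62, 66 were called higher without an alternative and also with a pseudocount of 0.1, and 110 with limma-voom. The 4 CAL-62 libraries alone gave 0 higher and 0 lower over all genes. Without a filter 66 of 11513 genes were called higher, with the sum of reads 10 and with the ribosomal protein reference 4. With the replicate number as a replicate block 7 of 9 RNAs were called in CAL-62, and 4 of 6 between the lines under DMSO, against 0 without it. Over all genes the replicate block called 2503 higher and 2060 lower of 11362 in CAL-62 and 2081 higher and 2241 lower of 10653 between the lines. It also called 16 of 25 snRNP, 4 of 6 signal recognition particle and 3 of 7 telomerase genes higher in CAL-62. So were 2 of 5 Ro, La and vault and 4 of 13 histone genes and both mitochondrial ribosomal RNAs. Called lower were 51 of 111 box C/D and 22 of 53 box H/ACA RNAs, with 5 and 1 higher. Of RNA polymerase III genes 7 of 22 were lower and 3 higher, and of RNA polymerase I genes 3 of 14 lower and 0 higher. Of snRNA 3′ end and assembly genes 9 of 25 were lower and 3 higher. The labels do not say what the number marks and a contrast has 2 pairs. Deviations of same-numbered libraries correlated at r = 0.779 in BCPAP and 0.464 in CAL-62 over 10653 genes, which are not independent. In BCPAP and for the difference of responses the count was 0 in every alternative. Of 225 recomputed changes of single RNAs, 189 kept direction and call, 16 lost the call, 11 gained it and 9 reversed. Where a library of the other line was left out, the estimate and its direction could not change, which adds to the 189. The reversals were RN7SL2 in CAL-62 (-0.32 with the ribosomal protein reference, -1.35 without CAL-62 DMSO replicate 2, -1.41 without CAL-62 THZ1 replicate 1), RN7SL1 in BCPAP (0.016 with limma-voom, 1.80 without BCPAP DMSO replicate 1, 0.35 without BCPAP THZ1 replicate 2), RN7SL2 in BCPAP (-0.45 without BCPAP DMSO replicate 2) and RNU7-1 in BCPAP (-0.48 without BCPAP DMSO replicate 2, -0.11 without BCPAP THZ1 replicate 1). Over all single libraries left out these 4 changes ranged from -1.41 to 2.39, -1.88 to 1.80, -0.45 to 3.51 and -0.48 to 2.70, in that order. The cause was not tested, and a group left with 1 library is assumed to vary like the others. As a share of summed values in place of reads, the RNAs took 0.0202% in BCPAP DMSO and in BCPAP THZ1, 0.0289% in CAL-62 DMSO and 0.0515% in CAL-62 THZ1. Without RN28S1 the share of reads was 0.00225% and 0.00155% in BCPAP DMSO and THZ1, a lower mean after THZ1, and 0.00366% and 0.00983% in CAL-62. Depth limits RNY5, VTRNA1-2, RNU7-1, RNU2-2, RPPH1 and TERC, which had at most 40 reads in a library.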
